A study of Mus musculus with 3 samples.

Results

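The transcripts of the islet peptide genes Ins1, Ins2 and Iapp were followed across the beta, alpha and delta cells of pancreatic islets from NOD/ShiLtJ mice. The members were taken by gene symbol, and these 3 genes are part of 8237 genes that the authors' tables list for at least 1 of the 3 cell types. All 3 genes are listed among the 8193 genes for beta cells and among the 186 genes for alpha cells. Of the 231 genes for delta cells, Iapp is the 1 member, and the levels of Ins1 and Ins2 in delta cells were not analysed here. The knockout group was 2 mice of genotype IRE1αβ-/-, in which IRE1α, a stress sensor of the endoplasmic reticulum (ER), was deleted from beta cells according to the labels. The control group was 1 floxed mouse of genotype IRE1αfl/fl. Mice of both groups were 5 weeks old and had been given tamoxifen at 10 mg per ml over 5 days to switch on Cre recombinase. The promoter that drives Cre, and whether the control mouse carried it, are not stated in the sources used here. Islets were picked by hand, cultured overnight, dissociated and sequenced as single cells in droplets. Each captured transcript carries a unique molecular identifier (UMI), so that UMIs count transcripts.

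Insulin is made as a preprohormone that enters the ER, folds with disulfide bonds and is cut to its mature form in the secretory granule. Mice carry a pair of non-allelic insulin genes: Ins2 has the ancestral gene structure, and Ins1 is a retroposed copy that lost an intron. Iapp encodes amylin, a peptide that is stored with insulin in beta-cell granules, released with it, and is also known from delta cells of rodents. Transcription of these genes in beta cells depends on factors such as PDX1, MAFA and NEUROD1, of which PDX1 binds TAAT cores and NEUROD1 binds E boxes of the form CANNTG. IRE1α is an ER membrane kinase and RNase whose splicing of Xbp1 mRNA raises the capacity of the ER to take in and fold secreted proteins.

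Ins1 (ENSMUSG00000035804) lies on the plus strand of chromosome 19 at 52264297 to 52265476 in the mm10 annotation GENCODE M21, with 2 exons and its only intron outside the coding part. Ins2 (ENSMUSG00000000215) lies on the minus strand of chromosome 7. RefSeq places it at 142678656 to 142679726, while GENCODE extends it to 142743381 because some of its 9 annotated transcripts start far upstream. Its first annotated transcript has 3 exons, and 1 of the 2 introns interrupts the coding sequence. Iapp (ENSMUSG00000041681) lies on the plus strand of chromosome 6 at 142298423 to 142303961, also with 3 exons. The first part of the coding sequences of Ins1 and Ins2, 240 aligned columns from the start codon, is shown because the ratio between these near copies is a main readout and depends on telling their transcripts apart. Capitals mark the bases that differ in the alignment, including 6 bases that are present in Ins2 and missing in Ins1. They were read from the GENCODE M21 transcripts, build GRCm38, at chr19:52264624-52264857, plus strand, and chr7:142678806-142679533, minus strand, where the intron of Ins2 is left out.
Ins1: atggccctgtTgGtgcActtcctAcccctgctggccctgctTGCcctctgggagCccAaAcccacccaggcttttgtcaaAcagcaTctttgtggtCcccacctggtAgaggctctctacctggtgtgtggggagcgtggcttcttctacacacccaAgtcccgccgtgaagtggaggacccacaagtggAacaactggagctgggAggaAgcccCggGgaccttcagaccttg
Ins2: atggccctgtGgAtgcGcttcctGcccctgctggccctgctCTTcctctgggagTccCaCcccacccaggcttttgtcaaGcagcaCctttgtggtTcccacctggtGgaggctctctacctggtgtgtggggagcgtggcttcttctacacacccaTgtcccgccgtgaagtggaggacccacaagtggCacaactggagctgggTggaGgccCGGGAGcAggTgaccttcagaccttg
This stretch holds 20 of the 25 mismatches between the whole coding sequences. Over their aligned bases 92.4% are identical, with 302 matches. The longest stretch shared by the Ins1 transcript and any Ins2 transcript was 56 bases. Of the 1013 windows of 50 bases in the Ins1 transcript, 7 also occur in an Ins2 transcript, and of its 988 windows of 75 bases, 0 do. RefSeq ends Ins1 at 52265015, before the GENCODE end of 52265476 to which these windows run. The sources used here state no read length, and how the counting divided reads from shared stretches was not tested. Which part of the transcripts the reads came from was not examined.

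Of the targeted pathway, Ern1, which encodes IRE1α, had 0.742 UMIs per knockout and 0.509 per control beta cell, and Xbp1 had 5.25 per knockout and 3.51 per control cell, so the label knockout is used as the submitters gave it. Reads outside the deleted exons would still be counted, and the sources used here do not state which exons were deleted.

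In beta cells, all 3 genes had fewer UMIs per knockout cell than per control cell, Ins1 and Iapp by more than Ins2. Ins2 averaged 9146 UMIs per knockout beta cell and 13373 per control beta cell. Ins1 averaged 3281 UMIs per knockout cell and 6900 per control cell, and Iapp averaged 935 UMIs per knockout cell and 1781 per control cell. They held the same order in both genotypes, as the 3 most abundant listed genes of the beta cell. The values rest on 815 knockout cells, in which the authors had pooled both mice, and on 829 control cells. These cell numbers and those below were recovered from the values themselves. No value of a single knockout mouse was at hand for beta cells, and with 1 control mouse no difference could be set against the spread between mice. Intervals given with a ratio are exact 95% intervals from the numbers of UMIs and cover counting error only.

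The ratio of knockout over control was 0.475 for Ins1 (0.475 to 0.476), 0.525 for Iapp (0.523 to 0.526) and 0.684 for Ins2 (0.683 to 0.685). On the log2 scale these ratios were -1.07, -0.93 and -0.55, while the median over all 8193 listed genes was 0.54. By a fold of at least 1.5, which served in place of a test, Ins1 and Iapp were lower and Ins2 missed the fold. Lower by that fold were 2.47% of the listed genes, 202 in all. Of all listed genes, 88 (1.07%) had a ratio as low as that of Ins1, 113 (1.38%) one as low as that of Iapp, and 214 (2.61%) one as low as that of Ins2. By the authors' deposited p-values, Ins1 stood at rank 28, Iapp at rank 151 and Ins2 at rank 1408. The authors' test is not stated, and these p-values were taken to be computed from cells.

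**Figure D1:**
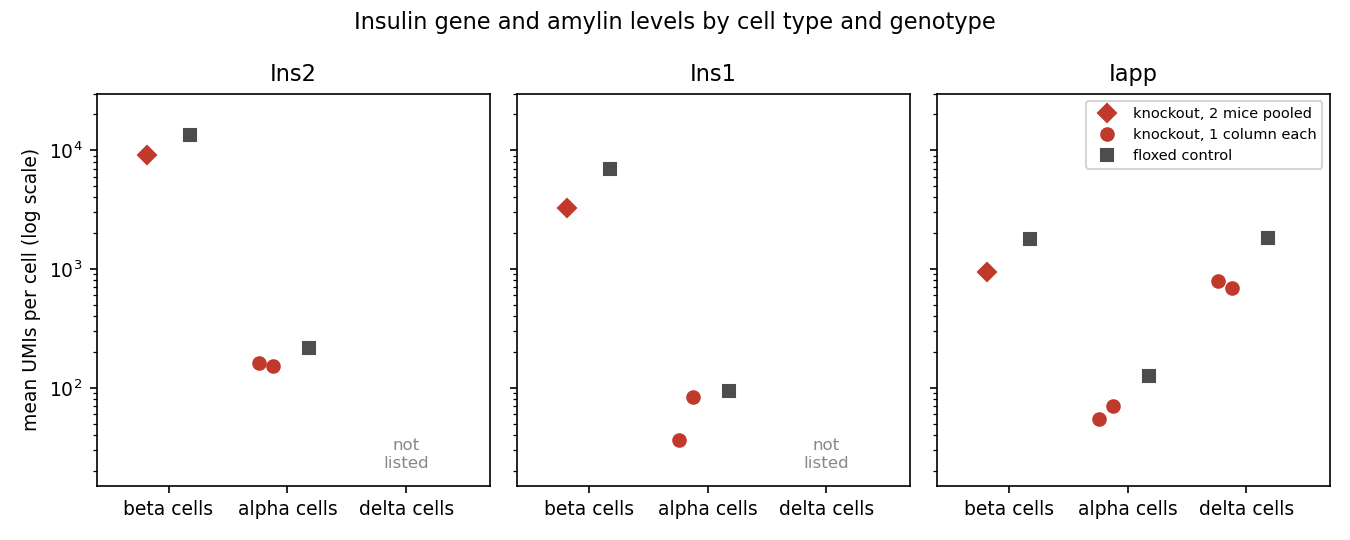
Mean UMIs per cell (log scale) of Ins2, Ins1 and Iapp in beta, alpha and delta cells; red marks are knockout values (a diamond where the authors pooled 2 mice, circles for 1 column each) and grey squares the floxed control. Every red mark lies below the grey square of its cell type; the nearest pair is Ins1 in alpha cells, where the second knockout column had 83.1 and the control 93.6 UMIs per cell.

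In UMIs, these genes held most of the difference between the genotypes in beta cells. Together Ins1, Ins2 and Iapp summed to 13362 UMIs per knockout cell and 22054 per control cell, a difference of -8692. Of that difference, 48.6% came from Ins2, 41.6% from Ins1 and 9.74% from Iapp. The other 8190 listed genes together went the other way, with 11434 UMIs per knockout cell and 9498 per control cell, a ratio of 1.20. The 3 genes thus made up 53.9% of the listed UMIs in knockout beta cells and 69.9% in control beta cells. Taken alone, Ins2 made up 36.9% of the listed UMIs in knockout and 42.4% in control cells, Ins1 13.2% in knockout and 21.9% in control cells, and Iapp 3.77% in knockout and 5.65% in control cells. Set against all other listed genes, there were 1.17 UMIs of the 3 genes for each other UMI in knockout cells and 2.32 in control cells.

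**Figure D2:**
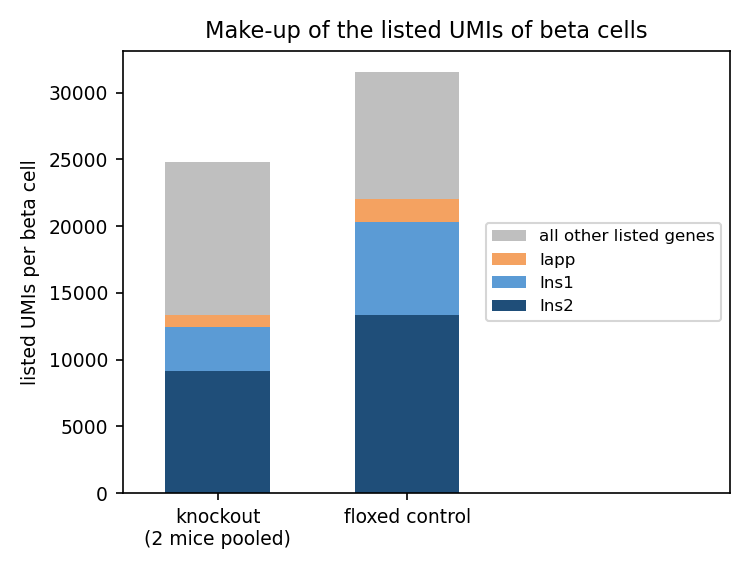
Listed UMIs per beta cell, split into Ins2, Ins1, Iapp and all other listed genes, for the pooled knockout mice (left) and the floxed control (right). The bars reach 24796 and 31552 UMIs per cell, and the coloured part of the 3 genes is 53.9% of the knockout bar and 69.9% of the control bar.

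How large a difference was read depended on the scale, and its direction did not. Scaled to the listed total of each column, the log2 ratio was -0.72 for Ins1, -0.58 for Iapp and -0.20 for Ins2, so that Iapp just missed the fold of 1.5 and Ins1 alone passed it. Since the 3 genes are most of that total, it moves with them. Scaled to the listed total without the 3 genes, the log2 ratios were -1.34 for Ins1, -1.20 for Iapp and -0.82 for Ins2, so that all 3 passed.

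Some other abundant transcripts of the beta cell were also lower by a like fold. Next in level after the 3 genes were the metallothionein genes Mt1 and Mt2, whose products bind zinc and other metals. Mt1 had 93.9 UMIs per knockout cell and 244 per control cell, a ratio of 0.385, and Mt2 had 67.0 per knockout and 169 per control cell, a ratio of 0.396. Of the 20 genes with the highest control level, 11 were lower and 5 were lower by at least 1.5-fold. These 5 were Ins1, Iapp, Mt1, Mt2 and the crystallin gene Crybb3. Crybb3 was singled out after its values were seen (26.6 UMIs per knockout and 57.5 per control cell). Over all listed genes, 413 of 8193 were lower and 2.47% were lower by that fold. Choosing genes by a high control level favours lower ratios. Of all listed genes, 5 were lower by over 100 UMIs per cell, namely the 3 members with Mt1 and Mt2, and 0 were higher by that much.

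**Figure D3:**
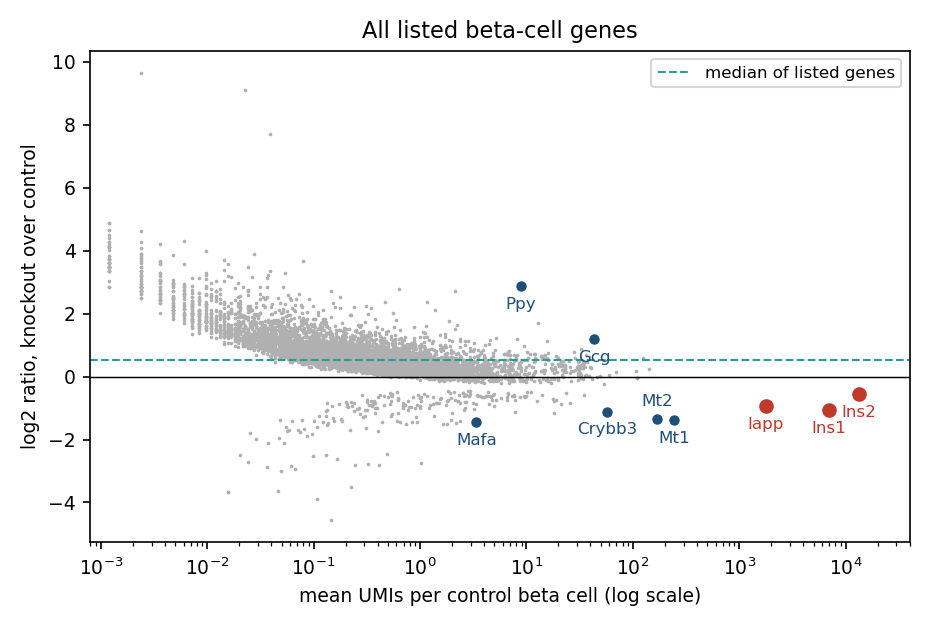
Log2 ratio of knockout over control against the mean UMIs per control beta cell (log scale) for the listed genes with UMIs in both genotypes, with Ins1, Ins2 and Iapp in red and other named genes in blue; the dashed line is the median of all listed genes. The 3 members sit at the far right, below 0 at -1.07, -0.55 and -0.93, while the dashed line lies at 0.54.

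The balance between the insulin genes also differed between the genotypes in beta cells. For each Ins2 UMI there were 0.359 Ins1 UMIs in knockout cells (0.358 to 0.359) and 0.516 in control cells (0.515 to 0.516), so that Ins1 supplied 26.4% of insulin UMIs in knockout and 34.0% in control cells. This ratio is taken within a column and does not depend on cell number or depth. Knockout over control it was 0.695. The sources used here do not state where the Cre gene lies, and whether it lies in an insulin gene, which would bear on the level of that gene and on this ratio, was not tested. Iapp stood at 0.102 UMIs per Ins2 UMI in knockout and 0.133 in control cells, and at 0.285 UMIs per Ins1 UMI in knockout and 0.258 in control cells. Iapp therefore lay closer to Ins1 than to Ins2 in its ratio of knockout over control.

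The sequence before the annotated starts of Ins1 and Iapp was searched for the cores that the factors above are known to bind. The annotated start is the first base of the RefSeq transcript. The windows show where these letters lie before genes that were both lower by over 1.5-fold in beta cells, and the window of Ins2 was not used here. They are the 250 bases before the start in GRCm38.p6, at chr19:52264047-52264296 and chr6:142298175-142298424, both on the plus strand, and capitals mark every TAAT on either strand and every CANNTG.
Ins1: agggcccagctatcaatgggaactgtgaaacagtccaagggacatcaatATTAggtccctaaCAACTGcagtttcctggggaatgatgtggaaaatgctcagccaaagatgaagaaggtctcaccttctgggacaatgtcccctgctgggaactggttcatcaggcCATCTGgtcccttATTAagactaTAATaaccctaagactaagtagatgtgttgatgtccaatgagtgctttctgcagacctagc
Iapp: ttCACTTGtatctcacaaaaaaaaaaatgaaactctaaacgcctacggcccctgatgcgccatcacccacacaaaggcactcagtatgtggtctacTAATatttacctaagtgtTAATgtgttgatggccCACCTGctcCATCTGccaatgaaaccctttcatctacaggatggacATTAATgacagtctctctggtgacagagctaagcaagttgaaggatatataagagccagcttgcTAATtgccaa
The Ins1 window holds 3 TAAT cores and 2 CANNTG boxes, and the Iapp window 5 and 3. Such letters are common: 54.9% of 32851 windows of the same length held a TAAT and 66.2% a CANNTG. At least 3 TAAT cores were found in 17.3% of windows and at least 5 in 5.54%. The box CATCTG, a form of CANNTG, occurs 1 time in each of the windows and in 14.4% of all windows. It lies 84 bases before the annotated start of Ins1 and 111 before that of Iapp. The letters TGCTGA, a core of MAF binding sites, were in neither window and in 16.1% of all windows. TATAAA was also in neither window and in 12.4% of all windows. The Ins1 window ends at 52264296, and the coding sequence of Ins1 begins at 52264624. The bases between were not searched. Start sites other than the annotated ones were not considered, so neither window stands for the whole promoter of its gene. These matches describe the letters in the windows and no binding was measured.

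Listed transcription factors of the insulin genes lay about where the whole beta-cell table lay, where 7780 of 8193 knockout values exceeded the control and 413 were below it, while Mafa was lower by over 1.5-fold. This list and those below were chosen with earlier results of these data known, so their counts describe the listed genes only. Of 17 transcription factors of the insulin genes, 12 were listed for beta cells: 10 were higher and 2 lower, with a median log2 ratio of 0.62 against 0.54 for all listed genes, and 6 were higher and 1 lower by at least 1.5-fold. The 1 lower by that fold was Mafa, which encodes an activator of the insulin promoter in mature beta cells, at 1.23 UMIs per knockout and 3.38 per control cell (ratio 0.364, 0.338 to 0.391). Neurod1 had 3.18 UMIs per knockout and 2.84 per control cell, a ratio of 1.12 (1.06 to 1.18). Insm1, a zinc-finger factor of endocrine cells, was at 0.975 (0.929 to 1.02). At the other end Rfx6, a factor of islet development, was at 2.03 (1.60 to 2.60) and Hnf4a, a nuclear receptor, at 1.89 (1.29 to 2.81). Of all listed genes 45.7% were higher by at least 1.5-fold, so the 6 of 12 are near the share of the table. Pdx1, Nkx6-1, Pax6 and Isl1 were among the genes of this list not analysed here.

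The genes through which proinsulin enters the ER and folds were mostly lower. Of 36 such genes 24 were listed, 17 of them lower and 7 higher, with a median log2 ratio of -0.62, and 14 were lower and 0 higher by at least 1.5-fold. Among all listed genes, 413 of 8193 were lower at all and 2.47% by that fold. Ero1l, an oxidase that drives disulfide formation, was at 0.506 (0.470 to 0.544). The translocon subunit gene Sec61g was at 0.560 (0.547 to 0.573), with 14.4 UMIs per knockout and 25.7 per control cell. Both ratios lie between those of Ins1 and Ins2. At the upper end were the chaperone gene Hsp90b1, with 9.43 UMIs per knockout and 6.51 per control cell, and Sec62, of the translocon, at 1.31 (1.23 to 1.40).

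Genes that cut proinsulin or fill the granule were spread on both sides of the control. Of 17 genes 13 were listed, 7 higher and 6 lower, with a median log2 ratio of 0.15 against 0.54 for all listed genes. By at least 1.5-fold 3 of the 13 were higher and 0 lower, against 45.7% and 2.47% of all listed genes. Of the 13, 10 lay below the median of all listed genes. Ptprn, a granule membrane protein, was at 0.930 (0.901 to 0.960) and Pcsk1n, an inhibitor of the prohormone convertase PC1/3, at 0.947 (0.932 to 0.961). Pcsk2, the convertase PC2, had 15.1 UMIs per knockout and 15.6 per control cell. Cpe, the carboxypeptidase that trims the cut peptides, had 27.7 per knockout and 21.4 per control cell. The granin gene Chgb was at 1.67 (1.64 to 1.71) and Ptprn2, a relative of Ptprn, at 1.77 (1.55 to 2.02). The UMIs per cell of the 13 genes summed to 227 in knockout and 202 in control cells, while the 3 members summed to 13362 in knockout and 22054 in control cells.

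Of 12 genes that couple glucose to insulin release 7 were listed, 4 higher and 3 lower. Their median log2 ratio was 0.01 against 0.54 for all listed genes, and all 7 lay below that median. By at least 1.5-fold 0 were higher and 3 lower, against 45.7% and 2.47% of all listed genes. The 3 lower ones were Gipr, which encodes the GIP receptor, at 0.311 (0.226 to 0.422), the glucose transporter gene Slc2a2 at 0.439 (0.342 to 0.559) and Ucn3, a peptide gene of mature beta cells, at 0.557 (0.484 to 0.641). Abcc8, the sulfonylurea receptor of the potassium channel that is closed by ATP, was at 1.26 (1.20 to 1.33).

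The other islet hormones were higher in the beta-cell table. All 4 that were listed were higher, as were 7780 of the 8193 listed genes, and their median log2 ratio was 1.45 against 0.54 for the table. The counts of markers below have the same background. Ppy, the pancreatic polypeptide gene, had 65.3 UMIs per knockout and 8.88 per control cell, and Gcg, the glucagon gene, had 100.4 per knockout and 43.6 per control cell. Alpha-cell markers, 5 of 9 of them listed and all 5 higher, summed to 155 UMIs per knockout and 62.0 per control beta cell. Delta-cell markers, 5 of 6 listed and 4 of them higher, summed to 104 per knockout and 80.7 per control cell. A large part of these sums was Pcsk1n, at 38.8 per knockout and 41.0 per control cell. Pcsk1n is also in the granule list and had 34.0 UMIs per control delta cell, so it does not tell delta cells from beta cells here. Sst had 59.1 per knockout and 36.7 per control beta cell. The part of these transcripts of other cells in the lower hormone values was not tested. Markers of red cells, 3 of 4 listed, summed to 22.6 UMIs per knockout and 0.0639 per control beta cell, and those of duct cells, 3 of 5 listed, to 64.9 per knockout and 36.0 per control cell, mostly Spp1. The listed markers of acinar (1 of 8), endothelial (2 of 4), mesenchymal (3 of 5) and immune cells (3 of 5) each summed to less than 1 UMI per cell in both genotypes.

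**Figure D4:**
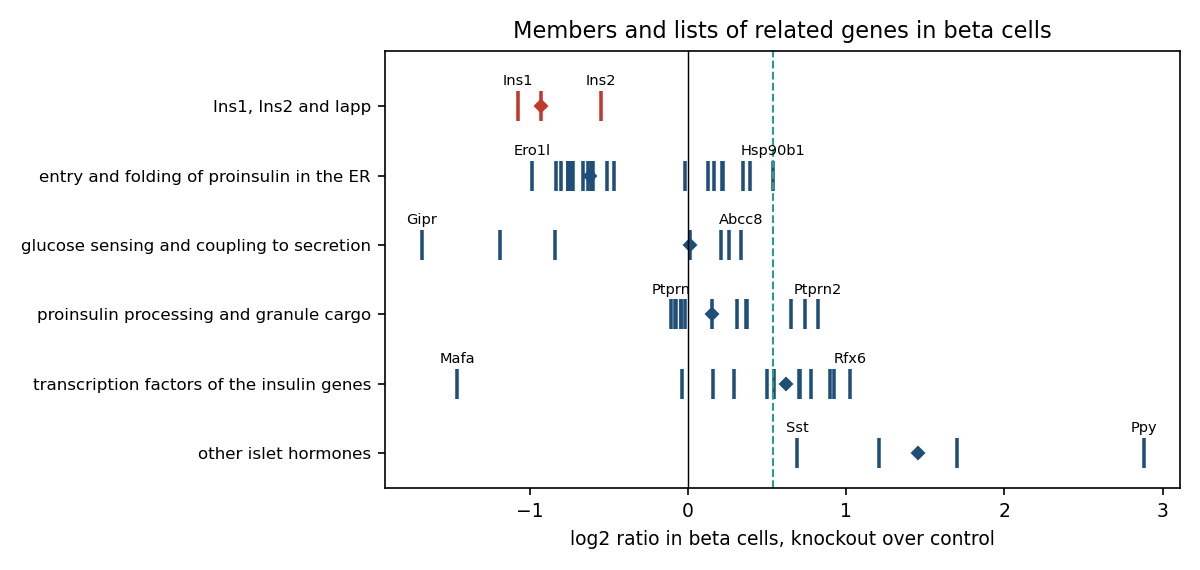
Log2 ratio of knockout over control in beta cells of Ins1, Ins2 and Iapp (red) and of the listed genes of 5 related groups (blue); each tick is a gene, a diamond is the median of its row, the solid line is 0 and the dashed line the median of all listed genes. All 3 members lie left of 0; of the groups, only entry and folding in the ER has its median left of 0, at -0.62.

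In alpha cells the same transcripts were present at a small part of their beta-cell level and were lower in both knockout mice. The tables for alpha and delta cells have 1 column per mouse, and the knockout columns, which were not matched to a particular mouse, are called the first and the second. Ins2 had 160 and 151 UMIs per alpha cell in the knockout columns and 214 in the control. Ins1 had 36.0 and 83.1 in the knockout columns and 93.6 in the control, and Iapp had 54.7 and 69.6 in the knockout columns and 126 in the control. No knockout value overlapped the control, but in Ins1 the second column came close to it, at 0.888 times its level (0.867 to 0.909). These values rest on 304 and 177 knockout cells and 142 control cells.

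Mean ratios of knockout over control in alpha cells were 0.494 for Iapp, 0.636 for Ins1 and 0.727 for Ins2, with knockout means of 62.1 ± 10.6, 59.6 ± 33.3 and 156 ± 6.44 UMIs per cell (SD, n = 2 each). By the fold of 1.5 Iapp and Ins1 were lower and Ins2 was not, and 30.1% of the 186 listed genes were lower and 10.8% higher by that fold. Ins1 no longer passed the fold when scaled to the listed total (log2 ratio -0.48), to that total without the 3 genes (-0.56) or to the median of listed genes (-0.36), while Iapp passed under each. Both knockout columns were below the control in 51.1% of the listed genes, so this pattern in the 3 members is close to that of the table. The median log2 ratio of the table was -0.29. Tested over mice by the quasi-likelihood method of edgeR, on UMIs recovered from the means, the adjusted p was 0.104 for Iapp, 0.351 for Ins1 and 0.455 for Ins2, at log2 folds of -1.02, -0.65 and -0.46. None passed the threshold of 0.05. That test has 1 residual degree of freedom and assumes that the control varies as the knockout mice do. An exact permutation test of 2 mice against 1 can give no p below 0.333.

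The knockout mice differed from each other in Ins1 more than in the other members. The first column had 0.434 times the Ins1 level of the second, 0.786 times its Iapp level and 1.06 times its Ins2 level. Of the 130 alpha-cell genes with a knockout mean of at least 1 UMI per cell, 4 differed as much as Ins1 between the knockout columns, Ins1 included. The others were the somatostatin gene Sst (12.1 and 42.0 UMIs per cell, against 36.8 in the control), Defb1 (5.06 and 12.1, against 4.30 in the control) and Id1 (0.891 and 2.08, against 2.50 in the control), which were singled out after their values were seen. Without the second column the log2 ratio of Ins1 was -1.38, and without the first it was -0.17.

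The ratio of Ins1 to Ins2 in alpha cells therefore had no common direction. It was 0.225 and 0.549 in the knockout columns and 0.437 in the control, so the control lay between them. The beta-cell values, 0.359 in the pooled knockout mice and 0.516 in the control, also lie between the knockout columns of alpha cells. By contrast, Iapp per Ins2 was 0.341 and 0.460 in the knockout columns and 0.587 in the control, lower in both.

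Set against beta cells of the same genotype, alpha cells held 1.75% and 1.65% of the Ins2 level in the knockout columns and 1.60% in the control. For Ins1 the shares were 1.10% and 2.53% in the knockout columns and 1.36% in the control. For Iapp they were larger, 5.85% and 7.44% in the knockout columns and 7.06% in the control. The ratio of Ins1 to Ins2 in alpha cells was 0.627 and 1.53 times that in beta cells in the knockout columns and 0.846 times in the control. Iapp per Ins2 was 3.34 and 4.50 times the beta-cell ratio in the knockout columns and 4.41 times in the control. Each knockout column of alpha cells was set against the beta-cell value pooled over both knockout mice. Free RNA and mixed droplets can carry abundant beta-cell transcripts into other cells, and their part in the alpha-cell values of the 3 genes was not tested. The other beta-cell markers Mafa, Slc2a2 and Ucn3 were not analysed in alpha cells.

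**Figure D5:**
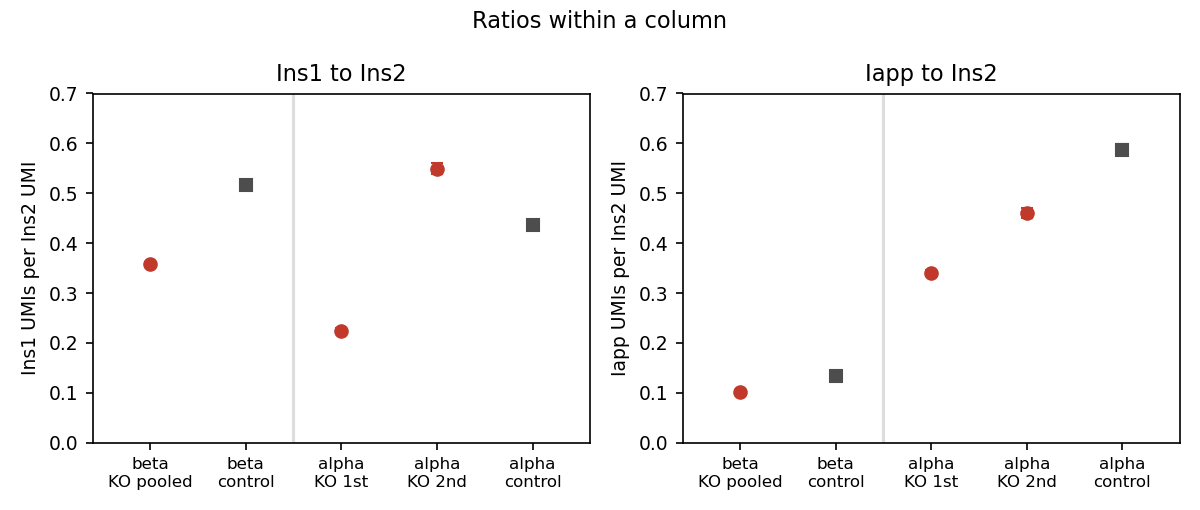
Ins1 UMIs per Ins2 UMI (left) and Iapp UMIs per Ins2 UMI (right) in each column of the beta-cell and alpha-cell tables, knockout in red and control in grey, with exact 95% counting intervals, most of them smaller than the mark. In beta cells both ratios are lower in the knockout, at 0.359 and 0.102 against 0.516 and 0.133; in alpha cells the knockout columns of Ins1 to Ins2, at 0.225 and 0.549, lie on both sides of the control at 0.437.

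None of the 9 alpha-cell markers, Gcg among them, is listed for alpha cells, so that label could not be checked against them. Ppy, the gene of a hormone of other islet cells, had 341 and 323 UMIs per cell in the knockout columns and 427 in the control, where it was the most abundant listed gene. Of the ER entry and folding genes, 6 were listed in alpha cells and all 6 were lower in their mean, as were 106 of the 186 listed genes. Of the 6, 4 were lower by at least 1.5-fold, against 30.1% of the listed genes. Among these 4 was Ssr2, a subunit of the translocon-associated complex, at 4.57 ± 0.109 in knockout mice and 7.39 in the control. Of the processing and granule genes 4 were listed and all 4 were lower, 1 of them, the granin-family gene Vgf, by at least 1.5-fold, which is near the 30.1% of the table.

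In delta cells, Iapp was the most abundant listed transcript and was lower in both knockout mice. It had 797 and 698 UMIs per delta cell in the knockout columns and 1825 in the control. The knockout mean was 748 ± 70.4 (SD, n = 2), a ratio of 0.410, and the columns themselves were at 0.437 (0.434 to 0.440) and 0.382 (0.379 to 0.386). The distance of the knockout mean from the control was far larger than that between the knockout columns. These values rest on 138 and 78 knockout cells and 101 control cells.

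Of the 231 listed genes 16.0% were lower and 41.1% higher by at least 1.5-fold, and in 17.7% both knockout columns were below the control. Only 9 genes (3.90%) had a mean ratio as low as that of Iapp, Iapp included, and the median log2 ratio of the table was 0.42. Iapp made up 26.0% and 26.4% of the listed UMIs in the knockout columns and 49.7% in the control. The other listed genes summed to 2273 and 1945 UMIs per cell in the knockout columns and 1850 in the control. By edgeR's test over mice, Iapp had an adjusted p of 0.166 at a log2 fold of -1.29, which did not pass. With the listed UMI total as offset in place of the cell number it passed, at a log2 fold of -0.92. That pass cannot be read as a difference between mice. Iapp itself is up to 49.7% of that total, its share hardly differed between the knockout columns, and the control was 1 mouse.

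Across cell types, Iapp in the control mouse was highest in delta cells (1825 UMIs per cell) and beta cells (1781), with alpha cells far lower (126). The delta-cell level was 1.02 times that of beta cells (1.02 to 1.03 by counting error), a step that cannot be weighed with 1 mouse. In the knockout the order of the first pair was the reverse: 935 UMIs per cell in beta cells and 797 and 698 in delta cells, or 85.3% and 74.7% of the beta-cell level. Whether the knockout-over-control ratio differs between delta cells (0.410), alpha cells (0.494) and beta cells (0.525) was not tested, since these cells come from the same mice. Cells of different types hold different amounts of RNA, so Iapp was also set against the summed level of the 63 other genes listed for all 3 cell types. For each of their UMIs there were 0.739 and 0.779 Iapp UMIs in knockout delta cells and 2.02 in control delta cells. In beta cells there were 0.700 in the knockout and 1.49 in the control, and in alpha cells 0.0460 and 0.0613 in the knockout columns and 0.120 in the control. The order of the cell types in the control was unchanged on this scale, while in the knockout both delta columns then lay above beta cells.

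Transcripts of other cells also differed between the genotypes in the delta-cell table. Gcg had 159 and 63.5 UMIs per delta cell in the knockout columns and 10.0 in the control. Of the 9 alpha-cell markers 3 were listed, 2 higher and 1 lower, summing to 165 and 67.4 UMIs per cell in the knockout columns and 14.1 in the control. Rbp4, a retinol carrier and delta-cell marker, had 84.2 and 69.1 in the knockout columns and 137 in the control. Pcsk1n, the other listed gene of the 6 on the delta-cell list, went the other way, with 48.3 and 51.6 in the knockout columns and 34.0 in the control. Control beta cells had 41.0 UMIs of Pcsk1n per cell, so it does not tell delta cells from beta cells here. The part of these transcripts in the Iapp difference was not tested, and the defining marker Sst was not analysed in delta cells. Of the ER entry and folding genes 4 were listed and all 4 were lower in their mean, as were 43 of the 231 listed genes, among them the signal peptidase gene Spcs2 at 4.92 ± 0.417 in knockout mice and 7.84 in the control.

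Genes whose ratios ran most like those of the members were sought among the 63 others listed for all 3 cell types, by Euclidean distance between log2 ratios. For the mean of Ins1 and Ins2, over the beta column and both alpha columns, the nearest were Dad1 (distance 0.387), Ssr2 (0.447), Manf (0.514), Spcs2 (0.526) and Pgam1 (0.867). Dad1 encodes a subunit of the complex that adds N-glycans in the ER, Manf a protein kept in the ER, and Pgam1 a glycolytic enzyme. The log2 ratios of Dad1 were -0.77 in beta cells and -0.60 and -0.58 in alpha cells, beside -0.81, -0.90 and -0.34 for the insulin mean. In alpha cells that mean joins unlike genes, with Ins1 at -1.38 and -0.17 and Ins2 at -0.42 and -0.50. It therefore follows the course of neither gene there. For Iapp alone, over all 5 knockout columns, the nearest were the glycolytic genes Eno1 (0.609), Pgam1 (0.792) and Tpi1 (0.793), then Ssr2 (1.01) and Mif (1.01), a cytokine gene. The log2 ratios of Eno1 were -0.63 in beta cells, -1.18 and -1.32 in alpha cells and -0.96 and -1.49 in delta cells, beside -0.93, -1.20, -0.85, -1.19 and -1.39 for Iapp. The columns share their control mouse, so likeness over them describes these libraries.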

How the data were processed

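Per the labels' protocols, libraries were made by the 10X Genomics droplet method, and the submitters' processing notes name Cell Ranger 3.0.0 and mm10. No source used here states the cell filters, the cell typing, how doublets and free RNA were treated, or the authors' test. The authors deposited, per cell type, a signal value for each gene they list as different, namely its mean UMIs per cell, not scaled for depth. This was read from the values. The cell number of each column was taken as the smallest whole number that made the most values whole. Multiplied by it, the values are whole within 0.001 for 100% of genes, and for 99.99% in control beta cells. Since the number was chosen for this, the wholeness is no separate check of the cell number. The authors' p-values and q-values, the largest q being 0.0103, were taken to be computed from cells, which are not replicates. They are used only for the ranks quoted. Which genes are listed was decided on these same cells, so shares of listed genes do not describe genes left out.

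From these values, ratios of knockout over control were taken with no pseudocount, and in alpha and delta cells over the unweighted mean of 2 mice. Exact intervals (Clopper-Pearson on the split of UMIs, 95%, and so covering counting error only) used scipy 1.17.1. The deposited labels do not say more of the replicates than that they are separate mice. edgeR 4.0.16 in R 4.3.3 was tried on simulated data, with larger folds than those of the members and no selection of genes. That trial cannot vouch for the p-values here. For the alpha-cell and delta-cell tables edgeR was run on recovered UMIs (offset: log of the cell number). It called 0 higher and 4 lower genes in alpha cells (5 and 47 at an unadjusted p under 0.05) and 28 higher and 22 lower in delta cells. These p-values are too small, since a gene is listed only if it differed in these cells. Sequences came from GENCODE M21 and from RefSeq's GRCm38.p6 promoter table, which matched Ins1 and Iapp.

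The members and lists were chosen with earlier results of these data known. Named were the members, the 5 genes with the highest control level, at most 4 examples of a list taken from both of its ends, and the 5 nearest genes. That rule asked for distances over 5 columns; for Ins1 and Ins2 only 3 exist, and the search for Iapp was added after seeing the data. Genes named outside it are said to be so or were named for their role in insulin production or in the targeted pathway.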

Additional observations from a re-analysis of the deposited data

How the results depend on the processing

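For beta cells, scaling to the listed total gave log2 ratios of -0.72 (Ins1), -0.20 (Ins2) and -0.58 (Iapp), scaling to that total without the 3 members gave -1.34, -0.82 and -1.20, and centring on the median of listed genes gave -1.61, -1.09 and -1.47. In alpha cells Ins2 was at -0.28, -0.36 and -0.17 under these scalings, Ins1 at -0.48, -0.56 and -0.36, and Iapp at -0.72 after centring. The call by the fold of 1.5 was lost for Ins1 of alpha cells under all 3 scalings and for Iapp of beta cells under the first, and was gained for Ins2 of beta cells under the other two. In delta cells Iapp was at -0.92, -1.48 and -1.71. Every alternative run for a level kept its direction, and a pseudocount of 0.1 UMI per cell moved no level beyond its error. Leaving out either knockout mouse gave a range of -1.38 to -0.17 for Ins1 in alpha cells, -0.50 to -0.42 for Ins2, -1.20 to -0.85 for Iapp, and -1.39 to -1.19 for Iapp in delta cells. The change of the Ins1 to Ins2 ratio in alpha cells, -0.17 in the mean, was -0.96 without the second column and 0.33 without the first, so its direction rests on 1 mouse. With the listed total as offset, edgeR put Iapp of delta cells past the threshold at a log2 fold of -0.92. Since Iapp is itself up to 49.7% of that total and the control was 1 mouse, this cannot be read as a difference between mice.

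Counts of listed genes past the fold moved more. In beta cells there were 3741 higher and 202 lower genes; a fold of 2 left 1626 and 100, scaling to the listed total gave 6816 and 112, scaling without the members gave 2104 higher, and centring gave 1324 and 343. In alpha cells there were 20 and 56, against 6 and 22 at a fold of 2, 35 and 35 after scaling to the listed total, and 47 and 26 after centring. In delta cells there were 95 and 37, against 47 and 15 at a fold of 2, 146 and 17 after scaling to the listed total, and 46 higher after centring. A fold of 2 is a stricter threshold by construction, and the scalings shift every ratio of a column by 1 factor.

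Ins1 and Ins2 gave no values for delta cells under any setting. No paired analysis was possible because the control group has 1 mouse and the columns carry no number shared between genotypes. The number of mice, not the number of UMIs, limits these comparisons: the counting intervals of the members are narrow, while beta cells have 1 value per genotype.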
